A study of Mus musculus with 36 samples.

Results

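The diaphragm is the main muscle of breathing, and in the mouse it keeps growing and changing its protein make-up between weaning and adulthood. The comparison described here set 3 arrays of control diaphragm at 56 days against 3 arrays of control diaphragm at 28 days, that is, the young adult muscle against the juvenile muscle soon after weaning. These are 6 of the 36 arrays of a series that also covered diaphragm of mdx mice, which lack dystrophin, and 6 ages in all, with 3 arrays in each of 12 groups. The mdx diaphragm at 56 and 28 days and, for a few genes, the other control ages are set beside it. Arrays were assigned by their labels alone.

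Each array was hybridised with total RNA of diaphragm muscle. The series title calls the controls wild type, and the labels name no strain, sex, pooling or date, so nothing says whether the replicates of a group came from separate animals. The p-values therefore cover only how far arrays of a group differ, possibly for technical reasons, and age cannot be told apart from any processing step that differed between the groups. Signal is the linear intensity of a probe set, a group of short probes for a single transcript, after scaling of each array to a common mean, so it can be compared between arrays for a probe set but not between probe sets. No detection calls were given, so a low signal cannot be told from background here.

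In young mammals, a growing muscle enlarges its fibres and adds nuclei to them, lays down the collagen scaffold around the fibres, and then slows both activities; growth hormone and insulin-like growth factors are the best known drivers of that growth. Newly made muscle also carries imprinted growth regulators and cytoskeletal proteins that fade with maturity, while adult fibres hold large amounts of contractile, glycogen and fat-burning proteins. Resident immune cells build up in tissues over the same weeks. In whole tissue, fewer cells of a type and less RNA per cell cannot be told apart.

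The 6 arrays resembled each other, with median signals of 552 to 606.2, correlations of 0.939 to 0.955 between arrays of an age, and 0.921 to 0.938 between ages. Summed signal of 11 skeletal muscle markers was 299687, 313463 and 225899 at 56 days, against 251911, 130755 and 188341 at 28 days, so the labelled tissue's own transcripts were bright on every array, and the groups overlapped. Y-linked Eif2s3y was between 1429 and 1797 on all 6 arrays. The ratio of the 3-prime to the 5-prime Gapdh control probe set, a sign of RNA or labelling quality, was 0.761, 0.542 and 0.153 at 56 days, against 0.244, 0.0360 and 0.0578 at 28 days. Albumin, a liver gene, gave 15483, 2577 and 668 at 56 days, against 526, 169 and 457 at 28 days. The same ratio for the actin control probe sets was 1.206, 1.011 and 1.082 at 56 days, against 0.911, 0.382 and 0.885 at 28 days. The ages were fully apart by the actin ratio and by albumin, and overlapped by the Gapdh ratio. All 3 measures moved with age. The actin ratio was not used as a covariate, so its part in the calls was not tested. Of 94 probe sets named below for a call in this comparison, by the rule given with the processing, 46 lost it with the Gapdh ratio of each array as a covariate and 22 with its albumin signal as a covariate, as given in the paragraphs on those genes. Further called probe sets are named below that were not among the 94. They include most of those named to complete a count and those picked out after their values were seen.

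Of 9291 probe sets tested, 110 (1.18%) were higher at 56 days than at 28 days and 248 (2.67%) were lower, 358 (3.85%) in all, in limma fits with Benjamini-Hochberg adjusted p under 0.05. They stood for 96 and 218 named genes. All 3 arrays of an age lay above all 3 of the other for 26.8% of the probe sets, and 1607 had an unadjusted p under 0.05. The lower calls had a median size of 0.86 on the log2 scale of signal plus 32, with 92 past 1, and the higher calls had a median size of 0.77, with 34 past 1. The counts depended on single arrays: leaving out 56-day array 1, 2 or 3 gave 49, 38 and 79 higher calls, and leaving out 28-day array 1, 2 or 3 gave 39, 110 and 39. The lower calls fell to 172, 128 and 183 without the 56-day arrays in turn, and to 158, 156 and 114 without the 28-day arrays. With the Gapdh ratio of each array as a covariate, 50 higher and 94 lower calls were left, 131 of them among the 358. In the text below, "rose" and "fell" are kept for probe sets that passed the test.

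**Figure D1:**
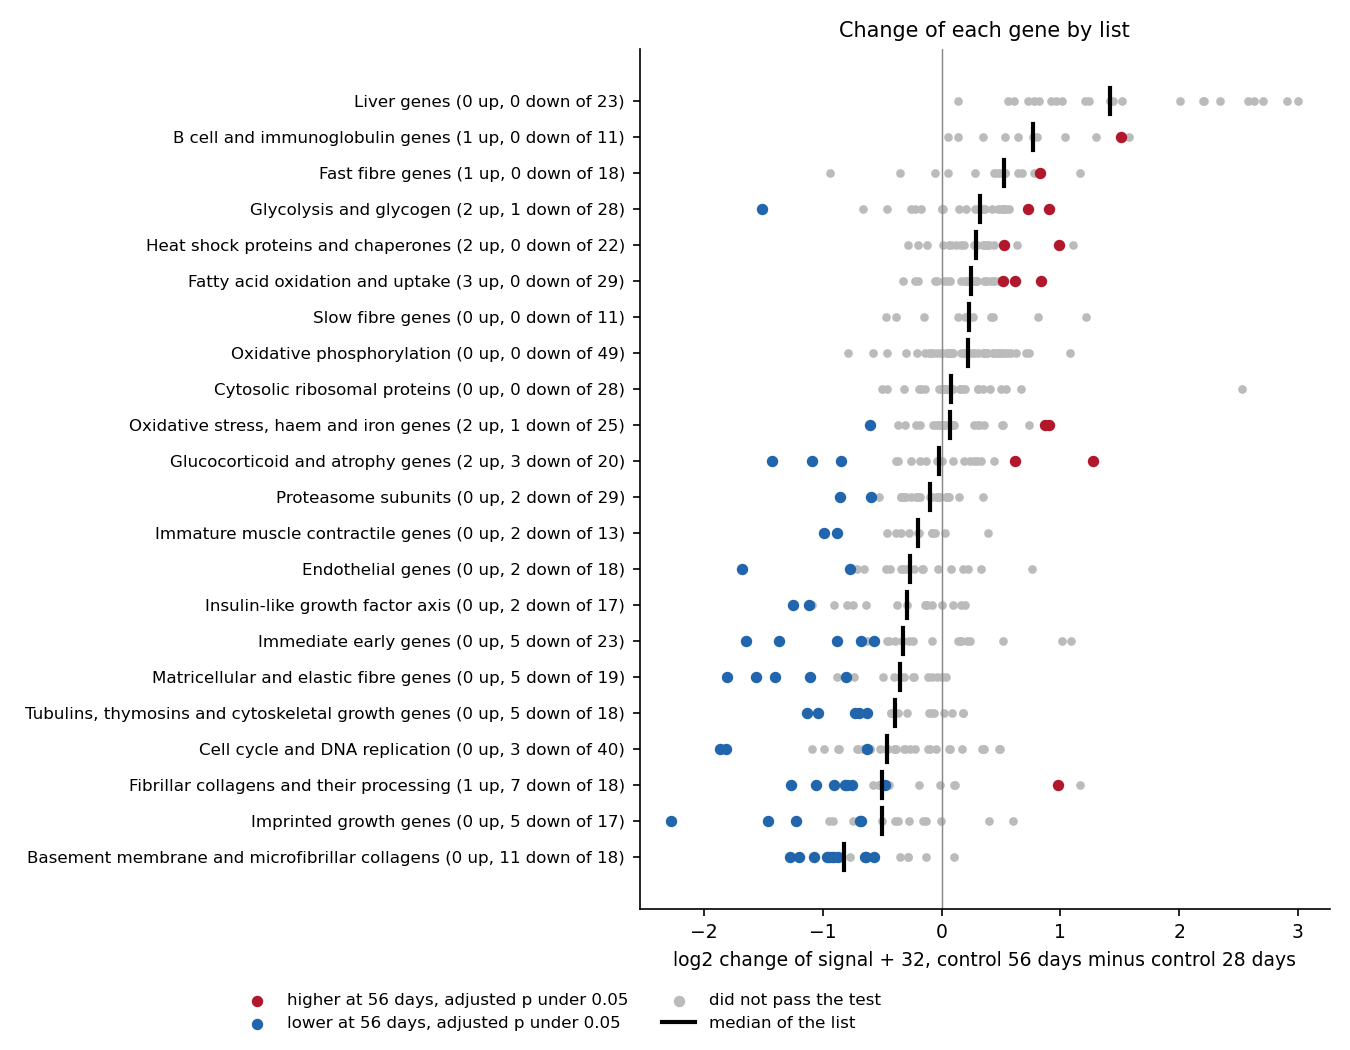
Log2 change of signal plus 32, control 56 days minus control 28 days (x axis), for each gene of 22 lists (rows), with the number called higher and lower of those tested. Red and blue points passed the test in the 2 directions, grey points did not, and the black bar is the median of the list. The lists of matrix, imprinted and cytoskeletal genes lie mostly left of 0, and those of fuel use and fast fibres mostly right of it.

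Genes of cell division were among the deepest falls. Mki67, which encodes the Ki-67 antigen of proliferating cells, gave 32.8, 27.9 and 40.2 at 56 days, against 340.0, 354 and 221 at 28 days, a log2 change of -2.34 ± 0.44 (SE, adjusted p = 0.00152 in limma, n = 3 each). The groups did not overlap, and the 56-day arrays lay so low that this probe set ranked at percentile 7.52 of the 56-day signals, against percentile 37 at 28 days. Prc1, a microtubule bundling protein of dividing cells, gave 102, 74.6 and 91.5 at 56 days, against 579.6, 662 and 411 at 28 days (log2 change -2.25, adjusted p = 0.000416 in limma). Ckap2, a protein of the mitotic spindle, had 60.6, 68.8 and 143 at 56 days, against 514, 489.5 and 341 at 28 days, which is a fall of 2.01 on the log2 scale (adjusted p = 0.0022 in limma). These 3 calls stood under every alternative run, single arrays left out included. A second Mki67 probe set, brighter than the first, changed by -0.22 and did not pass (adjusted p = 0.785 in limma).

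The promoters of these genes carry short sequences that cell cycle genes often share, and they are printed here because the falls of cell division genes rest on genes of this kind. The 200 bases before the RefSeq start of 5 of them are given 5′ to 3′ in build GRCm38.p6, with the cell cycle genes homology region (TTTGAA) and the CCAAT box (CCAAT, or ATTGG where it lies on the other strand) in capitals. Both strands were searched and the motifs share no bases here.
Mki67, chr7:135716380-135716579, minus strand: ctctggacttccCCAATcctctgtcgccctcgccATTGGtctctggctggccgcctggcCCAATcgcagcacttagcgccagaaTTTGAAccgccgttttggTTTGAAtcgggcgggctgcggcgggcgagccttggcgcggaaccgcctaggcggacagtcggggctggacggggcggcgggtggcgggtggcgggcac
Prc1, chr7:80294251-80294450, plus strand: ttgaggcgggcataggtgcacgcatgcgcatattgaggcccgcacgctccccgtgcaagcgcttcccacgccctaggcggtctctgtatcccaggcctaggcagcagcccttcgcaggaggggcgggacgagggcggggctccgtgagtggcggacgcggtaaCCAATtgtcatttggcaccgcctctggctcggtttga
Cdk1, chr10:69352913-69353112, minus strand: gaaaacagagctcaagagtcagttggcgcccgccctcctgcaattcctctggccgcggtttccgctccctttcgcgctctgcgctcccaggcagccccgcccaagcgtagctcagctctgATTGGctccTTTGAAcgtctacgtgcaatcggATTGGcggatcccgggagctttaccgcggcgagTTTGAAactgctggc
Ckap2, chr8:22185820-22186019, minus strand: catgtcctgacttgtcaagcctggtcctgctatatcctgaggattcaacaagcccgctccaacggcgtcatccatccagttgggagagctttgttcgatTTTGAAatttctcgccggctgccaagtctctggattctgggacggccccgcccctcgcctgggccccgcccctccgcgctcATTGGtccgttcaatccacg
Cks2, chr13:51645032-51645231, plus strand: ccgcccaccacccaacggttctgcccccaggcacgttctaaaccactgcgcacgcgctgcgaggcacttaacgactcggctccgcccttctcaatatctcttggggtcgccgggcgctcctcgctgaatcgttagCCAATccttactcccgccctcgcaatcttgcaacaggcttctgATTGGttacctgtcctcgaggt
The Mki67 window holds TTTGAA at 116 and 98 bases before the start, the Cdk1 window at 71 and 15, and the Ckap2 window at 101. No TTTGAA lies in these letters of Prc1 or Cks2, which hold CCAAT boxes at 37 bases, and at 65 and 22 bases, before the start. Among 27025 promoters searched over the same length, 12.8% held TTTGAA and 30.1% held a CCAAT box, and 3.86% held both. Of the 40 tested genes of the cell cycle list, 31 had a promoter in the table, of which 10 (32.3%) held TTTGAA, 21 (67.7%) held CCAAT and 9 (29%) held both. A match is a run of letters, not a bound site.

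Over the whole list of cell cycle and DNA replication genes, 3 of 40 fell and none rose, and the median change was -0.46, against 0.0022 over all 9291 probe sets. Cks2, a small subunit of cyclin-dependent kinases, had 135, 106 and 33.4 at 56 days, against 339, 378 and 452 at 28 days (log2 change -1.87, adjusted p = 0.017 in limma). Cdk1, the kinase that drives mitosis, gave 48.4, 114 and 86.2 at 56 days, against 259, 284 and 622 at 28 days, with a log2 change of -1.81 (adjusted p = 0.0382 in limma). Ccnd3, a cyclin that muscle precursors keep late, had 2863, 1855 and 2254 at 56 days, against 4034, 3187 and 3476 at 28 days, a fall of 0.63 (adjusted p = 0.0359 in limma). In all 3 the 56-day arrays lay below the 28-day arrays. The Cdk1 call was lost whichever single array was left out, with adjusted p between 0.057 and 0.22, the Cks2 call without array 3 of either age (adjusted p = 0.114 and 0.0789), and the Ccnd3 call in 4 of 6 omissions, up to 0.222. With the Gapdh ratio as a covariate no member was called and the list's median was -0.33. The albumin covariate ended the calls of Ccnd3 and Cdk1 (adjusted p 0.0798 to 0.115). Pcna, a clamp of replication, was near level, with means of 1906 at 56 days and 1974 at 28 days, a value chosen after it was seen. The other 37 of the 40 did not pass by their brightest probe sets, while 5 of all 49 probe sets of the list fell. Prc1 and Ckap2 are not on the list, and Mki67 stands on it by its brighter probe set.

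Imprinted growth genes, which are expressed from a single parental copy and mostly act before and soon after birth, formed a second group of falls: 5 of 17 fell, none rose, and the median change was -0.50. Cdkn1c, the cyclin-dependent kinase inhibitor p57, gave 2378, 2158 and 2313 at 56 days, against 6759, 7198 and 5253 at 28 days (log2 change -1.46 ± 0.16, adjusted p = 5.91e-07 in limma). Its 56-day arrays all lay far below its 28-day arrays, and the call stood under every alternative run. Peg3, a paternally expressed zinc finger protein, had 2477, 2400.4 and 2398 at 56 days, against 3675, 4487 and 3667 at 28 days (log2 change -0.69, adjusted p = 0.0015 in limma). Of its other probe sets the dimmer one fell by 1.36, and the third changed by 0.77 without passing. Meg3, a maternally expressed long noncoding RNA, fell in both of its probe sets, with log2 changes of -2.28 and -1.40 (adjusted p = 0.0186 and 0.000132 in limma). The first gave 2493, 1248 and 1655 at 56 days, against 8301, 10051 and 7366 at 28 days, and its call ended whichever 28-day array was left out, and without 56-day array 2 or 3 (adjusted p 0.054 to 0.10). Mest, a paternally expressed member of the hydrolase family, gave 286, 218 and 349 at 56 days, against 652, 693 and 754 at 28 days (log2 change -1.23, adjusted p = 0.0111 in limma). Slc38a4, an imprinted amino acid transporter, gave 1682, 1392 and 1864 at 56 days, against 2707, 2460.4 and 2761 at 28 days, a log2 change of -0.68 (adjusted p = 0.0114 in limma). Both of those calls ended without 28-day array 3 or 56-day array 2 (adjusted p 0.055 to 0.093). Mest and Slc38a4 lost their calls with the Gapdh covariate (adjusted p 0.0654 to 0.0859). The 5 calls were of genes expressed from either parent: Cdkn1c and Meg3 from the maternal copy, the other 3 from the paternal copy.

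In the insulin-like growth factor axis, 2 of 17 genes fell and none rose (median -0.29). Socs2, a feedback inhibitor of growth hormone signalling, had 1053, 862 and 1408 at 56 days, against 2162, 2868 and 2226 at 28 days, a log2 change of -1.12 ± 0.22 (adjusted p = 0.00284 in limma). Igfbp3, which carries insulin-like growth factors in blood, had 816, 1013 and 1181 at 56 days, against 2303, 2393 and 2531 at 28 days, a log2 change of -1.25 ± 0.27 (adjusted p = 0.00705 in limma). The second Igfbp3 probe set changed by -0.92 without passing. The array signals given for Socs2 and Igfbp3 bear on the probe sets called. Both groups of arrays were fully apart for each gene. Under the Gapdh covariate the adjusted p was 0.061 for Socs2 and 0.16 for Igfbp3, and the other alternatives kept both calls.

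Cytoskeletal genes of growing cells fell as well, with 5 of 18 tubulin, thymosin and related genes lower and none higher (median -0.39). Tmsb10, a small protein that holds actin monomers, gave 6123, 7065 and 4547 at 56 days, against 13287, 12639 and 12419 at 28 days (log2 change -1.13, adjusted p = 0.00135 in limma). Tuba1a, an alpha tubulin, gave 7595, 9814 and 6326 at 56 days, against 16314, 14415 and 17432 at 28 days (log2 change -1.04, adjusted p = 0.00496 in limma), while its second probe set changed by -0.20 without passing. Tubb5, a beta tubulin, fell in both of its probe sets, with log2 changes of -0.69 and -1.06. The actin binding proteins Marcks and Cfl1 had log2 changes of -0.73 and -0.63 (adjusted p = 0.0127 and 0.0336 in limma), and their calls ended in 4 and 5 of the 6 single-array omissions, with adjusted p up to 0.081 and 0.12. The Gapdh covariate ended the calls of Tubb5, Marcks and Cfl1 (adjusted p 0.0654 to 0.118), and the albumin covariate ended the call of Cfl1 (adjusted p = 0.094).

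The 2 lists with the largest shares of falls, basement membrane and fibrillar collagen genes, belong to the extracellular matrix, the protein scaffold that fibroblasts and muscle cells secrete around the fibres. Of 18 genes for basement membrane proteins and microfibrillar collagens, 11 fell and none rose, and the median change was -0.82. Col15a1, a collagen of the basement membrane zone, had 4206, 3913 and 3432 at 56 days, against 8679, 9959.9 and 7973 at 28 days (log2 change -1.20 ± 0.14, adjusted p = 4.27e-06 in limma). The 3 chains of collagen VI, which forms beaded filaments next to the muscle fibre, all fell. Col6a3 had 6223, 6149 and 7965 at 56 days, against 12594, 14353 and 15888 at 28 days (log2 change -1.08, adjusted p = 1.88e-05 in limma). Both probe sets of Col6a1 changed by -0.95, and Col6a2 fell by 1.27. Both chains of collagen IV, the mesh of every basement membrane, moved alike, Col4a2 by -0.92 and Col4a1 by -0.91 (adjusted p = 0.000125 and 0.000969 in limma). These 2 genes lie head to head on chromosome 8, on opposite strands with RefSeq starts 21 bases apart. Lama4, a laminin chain of vessel walls and fibres, gave 2053, 1938 and 1973 at 56 days, against 3481, 4401 and 3868 at 28 days (log2 change -0.96, adjusted p = 0.000458 in limma). The other members that fell, named to complete the count, were Lamb1, Hspg2, Agrn and Nid2, with log2 changes of -0.57, -0.65, -0.63 and -0.87. Lama2, the laminin chain of the mature muscle fibre, changed by -0.13 with means of 1921 at 56 days and 2096 at 28 days and did not pass (adjusted p = 0.71 in limma). Col18a1, on the list by a probe set that changed by 0.11 without passing, fell in a dimmer one (log2 change -1.14, adjusted p = 0.0352 in limma), and its other 3 did not pass. Both genes were named after their values were seen. Between 8 and 10 of the 18 were lower when any single array was left out, and 7 with the Gapdh covariate.

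Among fibrillar collagens and the enzymes that process them, 7 of 18 fell and 1 rose (median -0.50). Col1a2, a chain of collagen I, gave 7758, 7569.5 and 8069 at 56 days, against 17030.2, 19607 and 19974 at 28 days (log2 change -1.27 ± 0.15, adjusted p = 2.96e-06 in limma). Its second probe set changed by 0.20 and did not pass. Col5a2, a chain of the collagen V that seeds fibrils, had 4356, 4849.9 and 5443 at 56 days, against 9074, 10780.5 and 10699 at 28 days (log2 change -1.06, adjusted p = 2.14e-05 in limma). Col3a1, the main chain of fine reticular fibrils, fell in all 3 of its probe sets, with log2 changes of -1.74, -0.90 and -0.72, and the first gave 1268, 1376 and 1326 at 56 days, against 4085, 4595 and 4851 at 28 days (adjusted p = 4.87e-09 in limma). Col5a1 fell by 0.75. Sparc, a collagen binding protein made where matrix is laid down, gave 9501, 10584 and 11199 at 56 days, against 18622, 18368 and 18039.7 at 28 days (log2 change -0.82, adjusted p = 0.00135 in limma). Lox, which crosslinks collagen and elastin, and Serpinh1, the collagen chaperone, also fell (log2 changes -0.79 and -0.48), and both, like Loxl1, are named to complete the count. The single rise was of Loxl1, a lysyl oxidase tied to elastic fibre upkeep, at 1258, 1164 and 1292 at 56 days, against 768, 546 and 545 at 28 days (log2 change 0.98, adjusted p = 0.0497 in limma, without a call in any of the single-array omissions). Col1a1, the other chain of collagen I, named after its values were seen, had means of 22027 ± 2217 at 56 days and 30833 ± 7068 at 28 days (SD, n = 3 each) and did not pass (log2 change -0.46, adjusted p = 0.535 in limma). Col5a1 lost its call with the Gapdh covariate (adjusted p = 0.0692), which left 4 lower and 0 higher calls in the list.

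Elastic fibre and matricellular genes gave 5 falls among 19 and no rise (median -0.35). Postn, the matricellular protein periostin, had the lowest adjusted p of the group: its signal was 1413, 1385 and 1779.5 at 56 days, against 4489, 6409 and 5466 at 28 days, a log2 change of -1.81 ± 0.16 (adjusted p = 1.66e-08 in limma). Mfap2, a glycoprotein of elastin-bearing microfibrils, gave 677, 603 and 697 at 56 days, against 1872, 2044 and 2118 at 28 days (log2 change -1.56, adjusted p = 1.88e-05 in limma). Eln, which encodes elastin, fell in both probe sets, with log2 changes of -1.40 and -2.03, and the brighter one gave 11046, 7881 and 10047 at 56 days, against 26824, 22512 and 27052 at 28 days (adjusted p = 2.14e-05 in limma). Ccn2, connective tissue growth factor, fell by 0.81 and Tnc, tenascin C of developing and injured tissue, fell by 1.11 (adjusted p = 0.0151 and 0.0264 in limma). The dimmer Tnc probe set changed by -0.90 without passing. The Tnc call ended in every single-array omission except that of 28-day array 2 (adjusted p 0.074 to 0.13), and the Ccn2 call without 28-day array 3 or 56-day array 1 or 2 (0.079 to 0.15). Ccn2 and Tnc lost their calls with the Gapdh covariate (adjusted p 0.167 to 0.238). Of 7 small leucine-rich proteoglycans 1 fell, Lum, with 6488, 6992 and 6554 at 56 days, against 10734, 10370.4 and 11777 at 28 days (log2 change -0.71, adjusted p = 0.000332 in limma). Of 13 matrix proteases and inhibitors 1 fell, Serpinf1, a secreted antiangiogenic serpin, with 4235, 6447 and 5999.9 at 56 days, against 10957, 12038 and 12153 at 28 days (log2 change -1.09, adjusted p = 0.000597 in limma). The dimmer Serpinf1 probe set changed by -0.12 without passing.

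**Figure D2:**
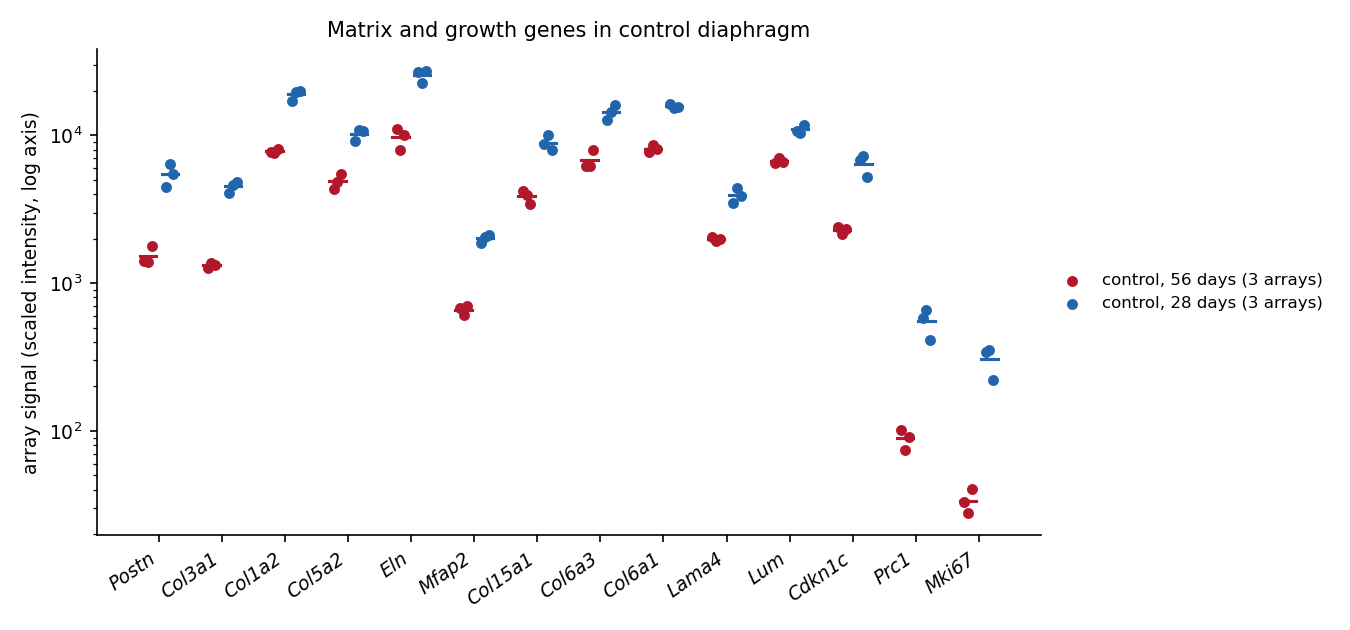
Signal of 14 genes on the 3 control arrays at 56 days (red, left) and the 3 at 28 days (blue, right), on a log axis; points are arrays and bars are means. In each gene every 56-day array lies below every 28-day array.

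Summed endothelial marker signal, over 18 genes, moved with these falls: it was 47403, 49858 and 53026 at 56 days, against 58848, 64924 and 65714 at 28 days. Of those 18 genes 2 fell, Ramp2, a receptor partner of blood vessels, with a log2 change of -0.77, and Nos3, endothelial nitric oxide synthase, with -1.68 (adjusted p = 0.00358 and 0.0223 in limma). The Nos3 call ended without 28-day array 2 or 3 or 56-day array 2 or 3 (adjusted p 0.086 to 0.13). With the Gapdh covariate the call of Nos3 ended (adjusted p = 0.0918), and the albumin covariate ended the call of Nos3 (adjusted p = 0.0549). Summed Schwann cell and nerve markers, over 11 genes, were 9522, 9694 and 10986 at 56 days, against 12873, 13702 and 14509 at 28 days, with Pmp22, a myelin protein that other cells also make, changed by -0.83 (adjusted p = 0.000656 in limma). Smooth muscle and pericyte markers summed to 57175 to 67978 at 56 days, against 55312 to 67156 at 28 days, and none of 11 passed. Cartilage, bone and tendon markers, over 10 genes, summed to 15983, 19193 and 19783 at 56 days, against 24354, 20353 and 24002 at 28 days, and mesothelial markers, over 9 genes, to 12884, 13512 and 12559 at 56 days, against 11181, 11676 and 10278 at 28 days. By these sums both pairs of groups were fully apart, and no gene of either list was called by its brightest probe set. The cartilage, bone and tendon list had 5 positive and 5 negative changes (median 0.0087), so its lower sum was not a fall across the list. The mesothelial list had 7 positive and 2 negative changes (median 0.23). A dimmer probe set of Clu, on the mesothelial list, rose by 0.78 (adjusted p = 0.0244 in limma), while its brighter one changed by 0.44 without passing. The part of vessel, nerve, tendon and mesothelial content in the matrix falls was not tested.

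Further genes outside these lists were named by the size of their fall. Tgfb1, the growth factor TGF-beta 1, gave 156, 72.8 and 70.4 at 56 days, against 658, 745 and 315 at 28 days (log2 change -2.18, adjusted p = 0.00217 in limma). Map4k4, a kinase of stress signalling, fell in both probe sets, with log2 changes of -2.04 and -0.57 and signals of 286, 186 and 169 at 56 days, against 1119, 913 and 862 at 28 days in the first. Wnt5a, a secreted noncanonical Wnt ligand, had 89.6, 31.1 and 193 at 56 days, against 326, 479 and 602 at 28 days (log2 change -2.02, adjusted p = 0.0162 in limma), a call lost without 28-day array 3 or 56-day array 2 (0.092 and 0.13). Pcsk5, a proprotein convertase, fell by 2.19 in its dimmest probe set, while the other 2 changed by -0.12 and -0.48 without passing. Avpi1, a gene induced by vasopressin, fell with a log2 change of -1.89, Clcn5, a chloride-proton exchanger of endosomes, with -1.88, Cotl1, an actin binding protein, with -1.98 and B3gnt2, a glycosyltransferase, with -2.05 (adjusted p = 0.00151, 0.00496, 0.0289 and 0.0212 in limma). The Cotl1 call ended whichever array was left out (adjusted p 0.057 to 0.11), the B3gnt2 call in every omission except that of 56-day array 2 (0.058 to 0.085), and the Clcn5 call without 56-day array 3 (0.051). The second probe sets of Clcn5 and B3gnt2 changed by 0.10 and 0.18 and did not pass. B3gnt2, Wnt5a and Cotl1 lost their calls with the Gapdh covariate (adjusted p 0.0967 to 0.192), and the albumin covariate ended the call of Cotl1 (adjusted p = 0.0813).

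Muscle fibre genes gave few calls. Of 13 contractile genes of immature muscle 2 fell. The first was Nes, the intermediate filament nestin, with 2306, 2232 and 2222 at 56 days, against 4186, 4362 and 3996 at 28 days (log2 change -0.88, adjusted p = 0.00396 in limma). The other was Myl4, the embryonic light chain, with 315, 232 and 274 at 56 days, against 531, 573 and 612 at 28 days (log2 change -0.99, adjusted p = 0.0228 in limma). The Nes adjusted p was 0.065 with the Gapdh covariate, and the Myl4 call ended in every omission except that of 56-day array 1 (0.053 to 0.12). The brighter Myl4 probe set changed by -0.33 without passing. Actc1, cardiac alpha actin, which fetal skeletal muscle uses, gave 9752, 8525 and 11706 at 56 days, against 19194, 21906 and 19075 at 28 days in its dimmer probe set (log2 change -1.01, adjusted p = 0.000329 in limma), and the brighter one changed by -0.38 without passing. Among 18 fast fibre genes 1 rose, Myh4, the heavy chain of the fastest fibres, with 28715, 34035 and 29197 at 56 days, against 13629, 16481 and 22617 at 28 days (log2 change 0.83 ± 0.23, adjusted p = 0.0382 in limma). That call ended in every omission except that of 28-day array 3 (adjusted p 0.076 to 0.19), and its dimmer probe set changed by -0.37. Of the 18, 15 had a positive change and the median was 0.52, but the median was -0.11 with the Gapdh covariate. None of 11 slow fibre genes passed (median 0.23, and -0.12 with the Gapdh covariate), with Myl3, the slow light chain, lowest in p at -0.47 (adjusted p = 0.102 in limma). Agrn, the nerve-derived organiser of the neuromuscular junction, was the only gene of 10 junction genes called by its brightest probe set. Its log2 change was -0.63, a call that ended in every omission but that of 56-day array 3 (0.060 to 0.11). The second Agrn probe set changed by 0.09 without passing, and 2 of all 15 probe sets of the junction list fell. Of 14 myogenic regulators Mef2c alone was called, with a log2 change of -0.73 in 1 of 4 probe sets (adjusted p = 0.0377 in limma, lost in every omission but that of 56-day array 3), and its other 3 probe sets changed by -0.56 to -0.0044 without passing. No list representative among 14 genes of the dystrophin complex or 11 of excitation contraction coupling was called. The dimmer probe set of Cav3, the muscle caveolin, fell by 0.74 (adjusted p = 0.00436 in limma), while its brighter one changed by -0.23 without passing. With the Gapdh covariate the calls of Myl4, Mef2c, Myh4 and Agrn ended (adjusted p 0.0608 to 0.144), and the albumin covariate ended the calls of Myl4, Mef2c and Agrn (adjusted p 0.0607 to 0.117).

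Genes of fuel use gave 6 rises and 1 fall over 3 lists. Ugp2, which makes UDP-glucose for glycogen, gave 8532, 8589 and 8621 at 56 days, against 4358, 4887 and 4474 at 28 days (log2 change 0.91 ± 0.13, adjusted p = 6.08e-05 in limma), with arrays of each age within a narrow band and no alternative that ended the call. In the same list of 28 glycolysis and glycogen genes, Phka1, the muscle subunit of phosphorylase kinase, rose by 0.73 (adjusted p = 0.0232 in limma, 0.15 without 28-day array 1 and 0.12 without 56-day array 2). Hk1, the hexokinase that adult muscle uses less than Hk2, fell, with 5381, 5424 and 7898 at 56 days, against 21515, 16590.3 and 15237 at 28 days (log2 change -1.52, adjusted p = 0.0015 in limma), which made 2 rises and 1 fall in the list (median 0.32, and 0.00063 with the Gapdh covariate). Of 29 genes for fatty acid uptake and oxidation 3 rose and none fell (median 0.25). Cd36, the fatty acid transporter, had 4524, 4809.6 and 4506 at 56 days, against 2653, 2557 and 2491 at 28 days (log2 change 0.84, adjusted p = 0.00748 in limma, 0.069 with the Gapdh covariate). Pdk4, the kinase that holds back glucose oxidation, rose by 0.62 and Etfa, which passes electrons from fat oxidation, by 0.52 (adjusted p = 0.0403 and 0.0426 in limma), and both calls ended whichever array was left out (0.051 to 0.18). Dld, a subunit shared by the pyruvate and oxoglutarate dehydrogenases, rose by 0.60 (adjusted p = 0.017 in limma), alone among 18 citric acid cycle genes, and its call ended without 28-day array 3 or 56-day array 1 or 2 (0.055 to 0.13). None of 49 oxidative phosphorylation genes was called. Their median was 0.23 as deposited, -0.0052 after quantile normalization and -0.04 with the Gapdh covariate. In the cholesterol synthesis list 1 of 11 fell, Fdps, an enzyme of the shared isoprenoid steps, by 0.71 (adjusted p = 0.018 in limma, lost in 4 of 6 omissions, up to 0.087). Its other probe sets changed by -0.13 and -0.02 without passing. The Gapdh covariate ended the calls of Dld, Pdk4, Etfa and Fdps (adjusted p 0.0566 to 0.371), and the albumin covariate ended the calls of Pdk4 and Etfa (adjusted p 0.0813 to 0.082). Summed skeletal muscle markers, given with the array facts, were lowest on 28-day array 2, and their part in these rises was not tested.

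Genes that guard against oxidants and misfolded proteins rose in part. Cat, catalase of peroxisomes, had 5634, 4993 and 4984 at 56 days, against 2617, 3081 and 2799 at 28 days (log2 change 0.87, adjusted p = 0.00748 in limma), while its second probe set changed by 0.04. Gpx3, a secreted glutathione peroxidase, gave 25551, 25468 and 19186 at 56 days, against 11645, 12952 and 12513 at 28 days (log2 change 0.91, adjusted p = 0.00881 in limma, 0.055 without 56-day array 2). Txn1, thioredoxin, fell by 0.60, and its call ended in 4 of 6 omissions (adjusted p up to 0.11). Those were the 3 calls among 25 genes of the oxidative stress, haem and iron list (median 0.07). Of 22 heat shock genes 2 rose (median 0.29), Hspa1a, an inducible Hsp70, with 3570.4, 2971 and 3639.8 at 56 days, against 1628, 1639 and 1803 at 28 days (log2 change 0.99, adjusted p = 0.0142 in limma). The other was Hspe1, the mitochondrial chaperonin 10, with 0.53. The Hspa1a call ended without 28-day array 1 or 56-day array 1 or 3 (0.052 to 0.056), and the Hspe1 call in all 6 omissions (0.071 to 0.15). Eif3a, a subunit of a translation initiation factor, rose by 0.67, and none of 28 ribosomal protein genes was called (median 0.08, and -0.16 with the Gapdh covariate). In the proteasome list 2 of 29 fell, Psmd4 and Psmd13, both of the regulatory cap, with log2 changes of -0.85 and -0.59 (median -0.10). The Psmd13 call ended in all 6 omissions (0.081 to 0.13) and the Psmd4 call in 3 (up to 0.13). With the Gapdh covariate the calls of Gpx3, Hspe1, Psmd4 and Psmd13 ended (adjusted p 0.0692 to 0.144), and the albumin covariate ended the calls of Psmd4 and Psmd13 (adjusted p 0.0556 to 0.119).

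Hormone-responsive transcription factors moved in both directions. Zbtb16, a zinc finger protein that glucocorticoids induce in many cells, had 9959, 10454 and 12305 at 56 days, against 4236, 4329 and 4878 at 28 days (log2 change 1.27 ± 0.19, adjusted p = 0.000121 in limma), a call that no alternative ended. Its second probe set changed by -0.45 with an SE of 0.62. Cebpd and Cebpb, related factors of stress and fat cell programmes, fell: Cebpd had 2819.7, 3105 and 4050.0 at 56 days, against 8562, 8668 and 9464 at 28 days (log2 change -1.43, adjusted p = 1.88e-05 in limma), and Cebpb fell by 0.84 (adjusted p = 0.00574 in limma, 0.071 with the Gapdh covariate). Ddit4, an inhibitor of mTOR signalling that starvation and steroids raise, fell by 1.09 (adjusted p = 0.00978 in limma), a call lost without 28-day array 2 or 56-day array 1 (0.066 and 0.074). With Pdk4 these made 2 rises and 3 falls among 20 glucocorticoid and atrophy genes (median -0.02). Of 23 immediate early genes 5 fell and none rose (median -0.32). Gadd45g, a stress sensor, gave 2076, 1433 and 2481 at 56 days, against 4997, 4503 and 5874 at 28 days (log2 change -1.37, adjusted p = 0.000263 in limma), and this call held in each omission. Those of Fos, part of the AP-1 factor (-0.88), and Btg2, an antiproliferative factor (-0.68), ended in every omission (adjusted p 0.068 to 0.16), and those of the Krüppel-like factors Klf2 (-1.65) and Klf6 (-0.57) in 4 of 6, up to 0.27. The Gapdh covariate ended the calls of Ddit4, Klf6 and Btg2 (adjusted p 0.162 to 0.318), and the albumin covariate ended the calls of Klf2, Klf6, Btg2 and Fos (adjusted p 0.0752 to 0.117). No gene of 18 in the circadian list passed by its brightest probe set, while 1 of the list's 23 probe sets fell. Per1, lowest in p by that probe set, had 664, 901 and 663 at 56 days, against 1519, 1906 and 1414 at 28 days (adjusted p = 0.0629 in limma).

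**Figure D3:**
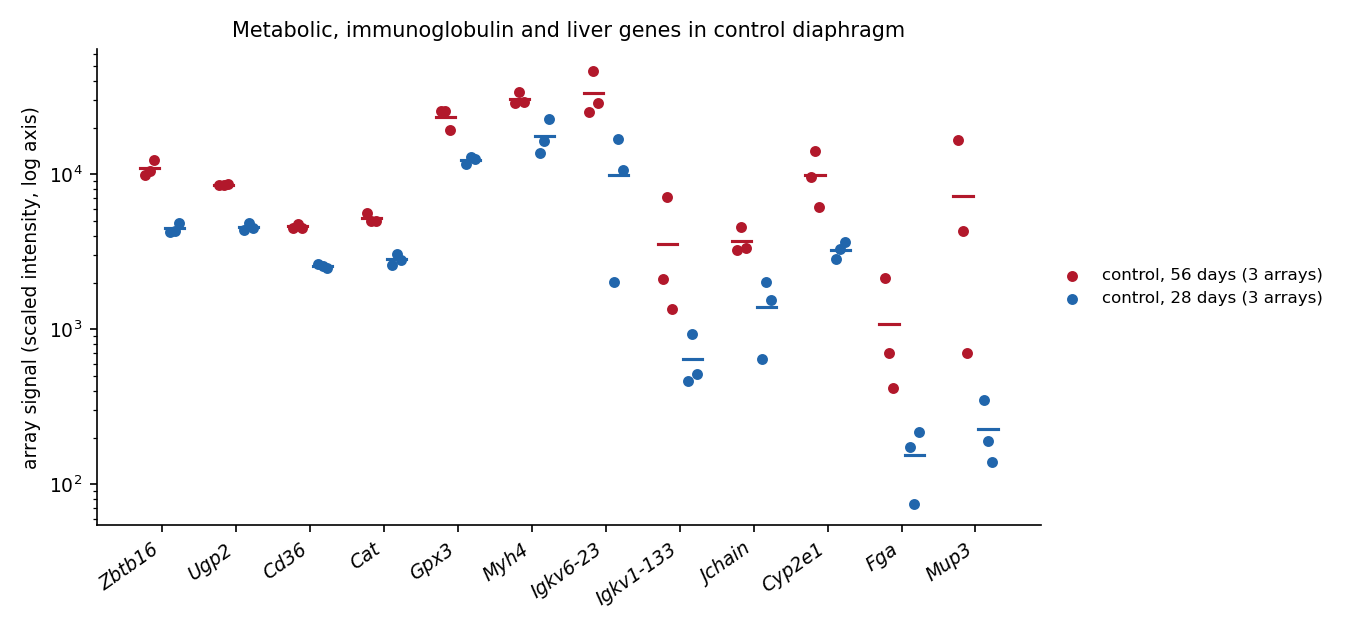
Signal of 12 genes on the 3 control arrays at 56 days (red, left) and the 3 at 28 days (blue, right), on a log axis; points are arrays and bars are means. Ugp2 and Cd36 arrays of an age lie close together, whereas Igkv6-23 at 28 days spans 2023 to 16944 and Mup3 at 56 days spans 708 to 16681.

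Immunoglobulin transcripts made up 6 of the 14 largest named rises, with the joining chain Jchain as a further 1. Jchain, which links antibody units in plasma cells, had 3228, 4569 and 3334 at 56 days, against 645, 2023 and 1538 at 28 days (log2 change 1.51 ± 0.42, adjusted p = 0.0379 in limma). Igkv6-23, a kappa variable segment, gave 25367, 46471 and 28843 at 56 days, against 2023, 16944 and 10607 at 28 days (log2 change 2.17, adjusted p = 0.0359 in limma). In both the groups did not overlap, and 28-day array 1 was the lowest. Igkv1-133 gave 2107, 7149 and 1358 at 56 days, against 466, 938 and 517 at 28 days (log2 change 2.11, adjusted p = 0.0047 in limma), and without 56-day array 2, its highest, the adjusted p was 0.073. The Igkv6-23, Igkv9-120 and Jchain calls ended in 5 of 6 omissions, all but that of 28-day array 2 (adjusted p 0.052 to 0.29), the Igkv8-19 call in 3 (0.10 to 0.18), and the Igkv6-14 and Igkv14-111 calls in 2 each (0.063 to 0.12). Over all kappa variable probe sets, a family picked out after its values were seen, 7 of 23 rose, none fell, 22 had a positive change and the median was 0.90. Many of these probe sets are marked by the array maker as shared among related segments, so their signals are not independent and a segment's name is uncertain. In the list of 11 B cell and immunoglobulin genes only Jchain was called, all 11 had a positive change (median 0.77), and the summed signal was 23347, 37086 and 28157 at 56 days, against 9014, 23934 and 15057 at 28 days, with overlap. Ighm, the mu heavy chain, changed by 1.04 in its brightest probe set without passing and rose by 1.29 in another (adjusted p = 0.0133 in limma). None of the remaining Ighm probe sets passed, with changes of -0.36 to 1.03. Among the kappa segments, the other probe sets of Igkv9-120, Igkv14-111 and Igkv6-14 changed by 0.05 to 0.90 without passing. The B cell receptor chains Cd79a and Cd79b changed by 0.65 and 0.53 and did not pass; they too were named after their values were seen. With the Gapdh covariate the calls of Igkv8-19, Igkv6-23, Jchain and Igkv9-120 ended (adjusted p 0.0649 to 0.118), and the albumin covariate ended the calls of Igkv8-19 and Igkv9-120 (adjusted p 0.052 to 0.1). Thymus, spleen and pancreas markers, over 9 genes, summed to 5996, 5656 and 7866 at 56 days, against 5134, 5533 and 2889 at 28 days, without overlap, with 8 of 9 positive, no call and a median of 0.60. Their part in the immunoglobulin rises was not tested.

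Other immune lists gave few calls. Ptprcap, a protein tied to the CD45 phosphatase of lymphocytes, had 837, 839 and 675 at 56 days, against 148, 298 and 357 at 28 days (log2 change 1.51, adjusted p = 0.0375 in limma), the only call among 10 T and natural killer cell genes, and it ended in every omission (0.052 to 0.20). Chil3, a chitinase-like protein of macrophages and neutrophils, gave 307, 255 and 279 at 56 days, against 65.8, 34.4 and 82 at 28 days (log2 change 1.79, adjusted p = 0.0414 in limma), also lost in every omission (0.077 to 0.15). The Gapdh covariate ended the calls of Chil3 and Ptprcap (adjusted p 0.152 to 0.207), and the albumin covariate ended the calls of Chil3 and Ptprcap (adjusted p 0.0549 to 0.109). None was called of 28 macrophage and monocyte markers (median 0.03, summed signal 44110 to 51950 at 56 days, against 44007 to 47251 at 28 days), of 22 interferon response genes (median -0.06), of 11 genes of MHC class II presentation (median 0.26) of 10 complement genes (median -0.09) or of 13 genes of MHC class I and the immunoproteasome (median -0.10). B2m, the light chain of MHC class I, had 20856, 28842 and 18288 at 56 days, against 9046, 9413 and 11867 at 28 days and an adjusted p of 0.0659 in limma, so it did not pass.

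The single largest named rise belonged to a gene of the liver. Mup3, a major urinary protein made by adult male liver, gave 16681, 4283 and 708 at 56 days, against 350.4, 191 and 139 at 28 days (log2 change 3.95 ± 1.13, adjusted p = 0.0421 in limma), and its call was lost in every omission but that of 56-day array 3 (0.078 to 0.25). Its second probe set changed by 3.79 without passing. With the Gapdh covariate the call of Mup3 ended (adjusted p = 0.307), and the albumin covariate ended the call of Mup3 (adjusted p = 0.162). A pair of probe sets without a gene name followed the same order of arrays at 56 days. The first had 18943, 9492 and 2494 at 56 days, against 261, 99.2 and 230.5 at 28 days. Its log2 change of 5.155 was the largest among all higher calls, above that of Mup3. The second had 13146, 5356 and 1654 at 56 days, against 297, 219.7 and 286 at 28 days. They were picked out after their values were seen. Mup3 is not on the liver list, whose 23 tested genes all had a positive change (median 1.42) without a call. Their summed signal was 68561, 32662 and 15558 at 56 days, against 9737, 10239 and 11954 at 28 days. The sum was highest on 56-day array 1, and 56-day array 3 was nearest to the 28-day group. Cyp2e1, a cytochrome of liver and fat, had 9558, 14143 and 6131 at 56 days, against 2857, 3293 and 3665 at 28 days (adjusted p = 0.0645 in limma). Fga, a fibrinogen chain, had 2142, 702 and 420.1 at 56 days, against 175, 75.2 and 216 at 28 days (adjusted p = 0.145 in limma). Leaving out the 9 of 36 arrays with albumin above 10000, which takes 56-day array 1 out, gave 77 higher and 257 lower calls, and the median of the liver list was then 0.62. With the albumin signal of each array as a covariate, 86 higher and 178 lower calls were left and the liver median was -0.11. Albumin is itself on the liver list, so both settings draw on the list's own values and its lower median there is no separate result. The part of liver RNA in other rises was not tested.

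The remaining large rises had no list. Trib3, a stress-induced pseudokinase, had 553, 1033 and 295 at 56 days, against 96.6, 94.4 and 95.6 at 28 days (log2 change 2.21, adjusted p = 0.0368 in limma), with 28-day arrays nearly equal and 56-day arrays spread widely, and among the omissions it kept its call only without 56-day array 3. Lrp5, a Wnt co-receptor, gave 706, 1058 and 1257 at 56 days, against 101, 549.8 and 140.1 at 28 days (log2 change 2.09, adjusted p = 0.00721 in limma), lost without 28-day array 1 or 3 (0.069 and 0.056). Gsdme, a gasdermin that forms membrane pores, had 2345, 1956 and 3338 at 56 days, against 391, 857 and 848 at 28 days (log2 change 1.86, adjusted p = 0.0162 in limma), lost without 28-day array 1 or 56-day array 3 (0.11 and 0.078). Ckmt1, the ubiquitous mitochondrial creatine kinase, had 446, 588 and 622 at 56 days, against 162, 119.8 and 351 at 28 days (log2 change 1.37, adjusted p = 0.017 in limma). The call was lost in 4 of 6 omissions (up to 0.11), and its second probe set changed by 0.05. The Gapdh covariate ended the calls of Trib3, Gsdme and Ckmt1 (adjusted p 0.0603 to 0.26), and the albumin covariate ended the call of Trib3 (adjusted p = 0.0801).

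Set beside the same interval in mdx diaphragm, whose muscle degenerates and regenerates from about weaning on, most probe sets called in controls had a change of the same sign. The 2 comparisons share no array. On the mdx arrays the Gapdh ratio was 0.198, 0.888 and 0.128 at 56 days, against 0.660, 0.105 and 0.0558 at 28 days. Summed skeletal muscle markers in mdx were 108512, 283438 and 197864 at 56 days, against 198418, 119954 and 166263 at 28 days. The lowest correlation between mdx arrays of an age was 0.910 at 56 days and 0.944 at 28 days. The part of these array differences in the mdx results was not tested. In mdx, 881 probe sets (9.48%) were higher at 56 days than at 28 days and 548 (5.9%) were lower. Over all 9291 probe sets the median change was 0.11 in mdx and 0.0022 in controls, and the median of the mdx change minus the control change was 0.12. The counts of like sign below are not corrected for that shift. Of the 110 that rose in controls 90 had a positive mdx change and 25 also rose in mdx, 25 of the 881 mdx rises. Of the 248 that fell in controls 224 had a negative mdx change and 90 also fell in mdx, 90 of the 548 mdx falls, and 1 rose. The median change of the control falls was -0.45 in mdx and -0.86 in controls, and that of the control rises was 0.35 in mdx and 0.77 in controls. Since these probe sets were picked for their control change, the choice itself favours larger medians in controls. Across the 9291 probe sets the correlation of the 2 changes was 0.33, a description over probe sets that share arrays.

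The difference between the 2 changes itself passed for 8 probe sets (0.0861%), 6 with a more positive change in mdx and 2 with a more negative one. Postn gave 18863, 24604 and 18659 at 56 days, against 22325, 17892 and 21632 at 28 days in mdx diaphragm, and 1413, 1385 and 1779.5 at 56 days, against 4489, 6409 and 5466 at 28 days in controls. Its change was 0.00 ± 0.16 in mdx and -1.81 ± 0.16 in controls, and the difference of 1.81 ± 0.23 passed (adjusted p = 8.19e-05 in limma), under each of the 25 alternatives. Col3a1 gave, in the probe set with the largest fall, 5535, 5281 and 3745 at 56 days, against 5938, 6618 and 7158 at 28 days in mdx. It fell in mdx too, with a change of -0.45 (adjusted p = 0.0336 in limma), against -1.74 in controls (difference 1.29 ± 0.21, adjusted p = 0.00286 in limma). Col6a3 gave 19899, 21480.5 and 14714 at 56 days, against 18114, 17799 and 21574 at 28 days in mdx, a change of -0.05, against -1.08 in controls (difference 1.03 ± 0.20, adjusted p = 0.0321 in limma). Col1a2 changed by -0.25 in mdx and -1.27 in controls (difference 1.02, adjusted p = 0.0397 in limma). These 3 collagens and periostin held their mdx signal closer to the 28-day level than in controls. Outside the matrix, Actc1 changed by 0.21 in mdx and -1.01 in controls (difference 1.22, adjusted p = 0.0251 in limma). Ndrg4, a gene of heart and brain, rose by 0.71 in mdx and fell by 0.53 in controls (difference 1.24, adjusted p = 0.00781 in limma). Its control fall was not called in any single-array omission (0.072 to 0.16) or with the Gapdh covariate (adjusted p = 0.301), and its difference was lost without mdx 28-day array 1 (0.062). In the dimmer Ndrg4 probe set the control change was 0.14 without passing. Adcy2, an adenylyl cyclase, and Abcd3, a peroxisomal transporter, each fell by 0.51 in mdx (adjusted p = 0.0071 and 0.00317 in limma). Their control changes were 0.32 and 0.21, with neither called (differences -0.83 and -0.73, adjusted p = 0.0397 and 0.0397 in limma). The differences of Actc1, Col6a3, Col1a2, Adcy2 and Abcd3 lost their calls in 7 to 9 of the 12 single-array omissions, with adjusted p up to 0.14. A difference that did not pass is not shown to be absent: Cdkn1c changed by -0.49 in mdx and -1.46 in controls, with a difference of 0.97 ± 0.22 (adjusted p = 0.0594 in limma).

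**Figure D4:**
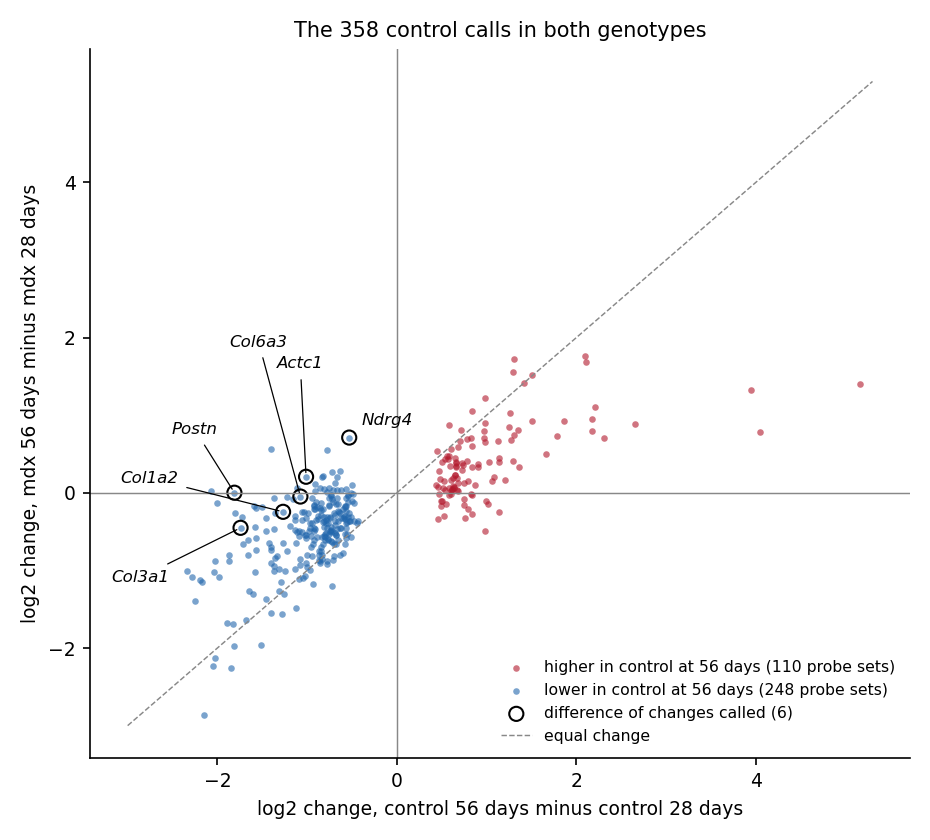
Log2 change, 56 days minus 28 days, in mdx diaphragm (y axis) against the change in control diaphragm (x axis) for the 358 probe sets called in controls; red points rose and blue points fell in controls, the dashed line marks equal change, and circles mark the 6 with a called difference between genotypes. The mdx changes of Postn, Col6a3 and Col1a2 lie near 0 while their control changes lie between -1.81 and -1.08.

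Across all 6 control ages the falls differed in course. Postn signal in controls was 23014 ± 1197 at 7 days, 13590.5 ± 279.9 at 14, 5132 ± 56.2 at 23, 5455 ± 960.5 at 28, 1526 ± 220.0 at 56 and 1172 ± 145 at 112 days (SD, n = 3 each), so the 23- and 28-day levels lay close together. Cdkn1c went through 17568 ± 2466 at 7 days, 20092 ± 3852 at 14, 8581 ± 859 at 23, 6403 ± 1020.1 at 28, 2283 ± 113 at 56 and 2103 ± 65.5 at 112 days. Col1a2 was 4792 ± 364 at 112 days, against 7799 ± 252 at 56 and 18870.4 ± 1604 at 28 days. Mki67 was 1771 ± 375 at 7 days, 305 ± 73.1 at 28, 33.6 ± 6.19 at 56 and 146 ± 108 at 112 days, with the 56-day value the lowest of all. Igkv6-23 was highest at 56 days, with 500.2 ± 144 at 7 days, 9858 ± 7489 at 28, 33560.3 ± 11315 at 56 and 7742 ± 1853 at 112 days. Zbtb16 was 7796 ± 1172 at 23 days, 4481 ± 347 at 28, 10906 ± 1237 at 56 and 12675 ± 1903 at 112 days, so its 28-day level was a dip between higher neighbours.

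**Figure D5:**
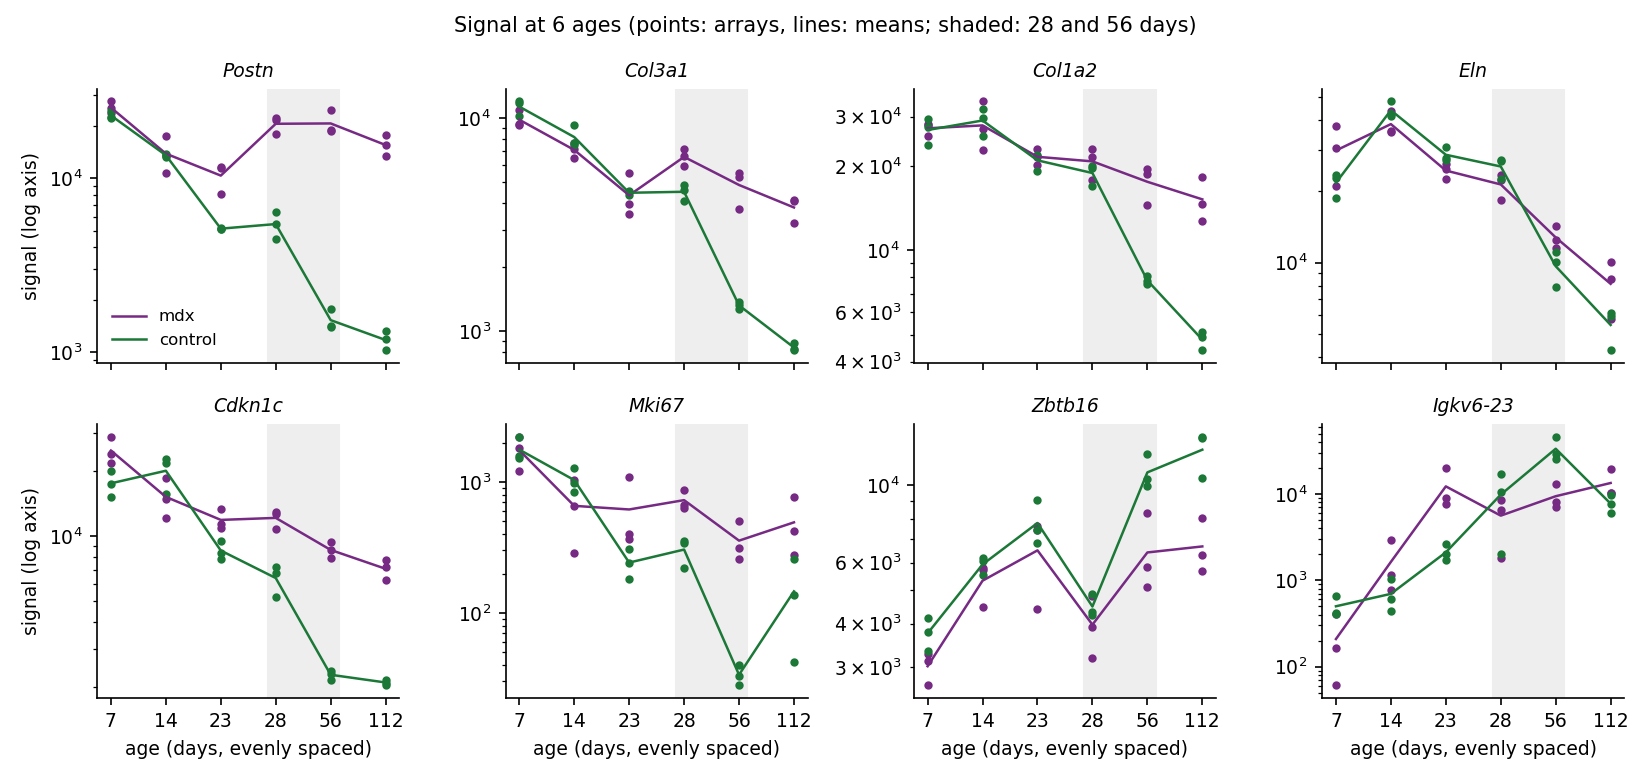
Signal (log axis) of 8 genes at 6 ages, 7 to 112 days on evenly spaced positions, in mdx (purple) and control (green) diaphragm; points are arrays, lines join means and the band marks 28 and 56 days. Control Postn, Col3a1 and Col1a2 drop across the band while mdx signals stay higher.

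For scale, 1362 probe sets (14.7%) were called between 28 and 7 days in controls and 53 (0.57%) between 112 and 56 days. Each of those comparisons shares 3 arrays with the 56 against 28 day comparison, so the values are set side by side only. The basement membrane list had a median change of -0.40 over 28 minus 7 days, -0.82 over 56 minus 28 days and -0.15 over 112 minus 56 days. The cell cycle list had medians of -0.96, -0.46 and 0.25 over the same 3 intervals, and the imprinted list -1.11, -0.50 and -0.18.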

How the data were processed

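Diaphragm RNA of 36 samples was measured on Affymetrix mouse arrays. The deposited intensity values, linear and already scaled by the authors to a common trimmed mean (1499.2 to 1499.8 over all arrays), were used as given; no source used here names the software, and the labels say only that the array maker's standard protocol was followed. The number of arrays limits the precision. From the deposited values log2(signal + 32) was computed. Probe sets above 374.5 (percentile 40) on at least 3 arrays were kept, 9291 of 12488, with 66 control probe sets left out. Gene names came from the platform annotation: 10833 probe sets had 1 symbol, 396 several and 1193 none. All 12 groups were fitted together in limma 3.58.1 (R 4.3.3) with moderated variances that follow the mean signal, and p-values were adjusted over all 9291. Lists and their members were chosen with earlier results of these data known; a gene stood on a list by its brightest probe set. Genes named were the 14 largest rises and falls with fully separate ages, up to 5 called members of each list by adjusted p, or the 2 lowest, the 2 brightest markers of other cells, and up to 5 genes each way for the difference between genotypes. On simulated data for this comparison, of 50 changed probe sets per size among 9291, 14%, 66%, 84% and 100% were found at log2 changes of 0.5, 1, 2 and 3, and 5 of 137 calls were unchanged probe sets. The simulated noise was normal and independent between probe sets and arrays. Effects shared across an array were left out, so these figures do not measure the share of false calls in the real data. The main fit did not pair samples by replicate number. Deviations from the group mean correlated by 0.046, 0.078 and 0.050 between same-numbered control arrays of the 2 ages, and by -0.065 to 0.013 between differently numbered ones. In mdx the same-numbered arrays gave -0.090, -0.145 and -0.062, so the 2 genotypes differed in direction and all values were small.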

Additional observations from a re-analysis of the deposited data

Results flagged for a closer look

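In all, 8 probe sets changed differently between 28 and 56 days in mdx and in control diaphragm by a test of the difference itself, the interaction term of the limma fit. The differences, mdx change minus control change on the log2 scale, were 1.81 for Postn, 1.29 for Col3a1, 1.24 for Ndrg4, 1.22 for Actc1, 1.03 for Col6a3, 1.02 for Col1a2, -0.83 for Adcy2 and -0.73 for Abcd3. Other probe sets of the same genes did not pass: their differences were 0.99 and 0.78 for Col3a1, 0.84 for Col1a2, 0.43 for Actc1 and 0.81 for Ndrg4 (adjusted p = 0.138, 0.134, 0.199, 0.535 and 0.507 in limma). Of the 8, Postn and Col3a1 kept the call in all 12 single-array omissions.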

How the results depend on the processing

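The counts of control calls moved by more than 1.5 times under array weights (363 higher, 562 lower) and with the Gapdh ratio as a covariate (50 and 94), and the higher count also in a fit of the 18 control arrays (181). Without single arrays they were 38 to 110 higher and 114 to 183 lower. For the difference between genotypes, 6 positive and 2 negative as reported, the positive and negative counts were 10 and 6 with a pseudocount of 100, 13 and 11 with the filter at percentile 60, 10 and 9 after quantile normalization, 3 and 14 after median centring, 130 and 86 with array weights, 1 and 0 in the 12 arrays alone, 3 and 0 without a variance trend, 3 and 0 with the Gapdh covariate, and 11 and 5 without the arrays with albumin above 10000. They were 5 and 0 both with no filter and with the replicate block, and 2 to 19 and 0 to 16 without single arrays. The replicate block gave 111 higher and 247 lower control calls, 344 of them shared with the 358. A fit of the 6 compared arrays alone gave 125 higher and 231 lower control calls, with only 236 shared with the 358. Named calls that ended in that fit included Lrp5, Clcn5, Wnt5a, Cks2, Myh4, Klf2, Marcks, Jchain and several kappa segments. The causes were not tested. Probe sets with no call changed sign: Tpm2 to -0.042 after quantile normalization, and with the Gapdh covariate Hba-a1 to -0.32, Upk3b to -0.034 and Eif2s3y to 0.10. Without single arrays Hba-a1 was -0.0036 to 1.39, Upk3b -0.065 to 0.091, Ctrb1 -0.0019 to 1.03 and Eif2s3y -0.12 to 0.049. With no detection calls, dim probe sets such as that of Mki67 give no firm fold.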

Other observations

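Several genes outside the lists passed the test between the ages. They were picked out after their values were seen, and were not among the 94 probe sets counted under the covariates. Hsd11b1, which turns inactive glucocorticoid into its active form, gave 1240.5, 1319 and 1321 at 56 days, against 629, 355 and 579 at 28 days (log2 change 1.30, adjusted p = 0.00748 in limma). Ahr, the receptor for aromatic compounds, rose by 1.13, Mgst1, a membrane glutathione transferase, by 1.14, Abcg2, an efflux transporter, by 0.97, and Xdh, xanthine dehydrogenase, by 0.98. G0s2, an inhibitor of fat breakdown, rose by 1.02, and Xbp1, a transcription factor of secretory cells, by 0.60.

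Among falls, Nrep, a neuronal regeneration protein, gave 8354, 8159 and 8063 at 56 days, against 22273, 18323 and 21847 at 28 days (log2 change -1.34, adjusted p = 1.11e-06 in limma), and Fstl1, a secreted follistatin-like protein, gave 1520.1, 1389 and 1696 at 56 days, against 4128, 4119.8 and 3816 at 28 days (log2 change -1.37, adjusted p = 2.14e-05 in limma). Neither gene's arrays overlapped between ages. C1qtnf3, a secreted C1q-like protein, fell by 1.36, Gamt, which makes creatine, by 1.36, Jarid2, a chromatin regulator, by 1.22, and Cd93, a receptor of endothelial cells, by 1.06.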
